A study of Mus musculus with 16 samples.

Results

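The transcripts of adherent peritoneal macrophages from lipin-1 mutant mice were compared with those from control mice, without any stimulus. The comparison rested on 8 arrays, chosen by their titles out of 16 in the series: 4 of fld cells and 4 of control cells. The fld mice carried the fatty liver dystrophy mutation of Lpin1, and the control mice were heterozygotes of the same strain, BALB/cByJ-Lpin1fld/J, so that the controls also carried 1 fld allele. All mice were male. Peritoneal cells were left to adhere for 2 h, rinsed to remove cells that had not attached, and kept in RPMI medium without serum and without LPS. The other 8 arrays held cells of the same genotypes given 100 ng/ml LPS for 5 h. The fld mutation is present in every cell of the animal, so it was not confined to macrophages. Nothing states that a replicate was a mouse of its own on each array, and p-values then measure only the spread between these samples.

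Lipin-1 is a phosphatidate phosphatase, which turns phosphatidic acid into diacylglycerol on the way to triacylglycerol and phospholipids, and it can also act in the nucleus with transcription factors of lipid metabolism. The fld allele is a rearrangement of Lpin1 and causes a fatty liver in young mice and a shortage of adipose tissue. In macrophages, lipin-1 is known for its part in triacylglycerol storage and in the inflammatory response to ligands of Toll-like receptors.

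Levels are given as the log2 of the deposited signal minus the 75th percentile of that array, so a level of 0 equals the array's 75th percentile and a difference of 1 is a doubling. Levels of different genes come from different probes and are not compared with each other. A feature is a gene, or a probe without a gene name, and was called when limma's test across all features gave a Benjamini-Hochberg adjusted p under 0.05. Positions are those of the probes as the files give them, in a build not given in the sources used here.

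Lpin1 itself was read by 4 probes on chromosome 12. The mean of 3 of them, which lie between 16591574 and 16591713, was -6.07, -6.72, -6.42 and -1.62 in fld cells, against -3.15, -3.53, -2.88 and -2.89 in control cells. The libraries labelled fld replicates 1 to 3 thus lay far below all controls, and the library labelled fld replicate 4 lay above all of them. The mean difference was -2.09 with that library and -3.29 without it, and an exact two-sided permutation test with it gave p = 0.143, where the smallest p that 4 against 4 arrays allow is 0.0286. Each of these 3 probes was well above background on all 4 control arrays but on only 1 fld array. The differences are therefore not measured sizes. The remaining probe, at 16590760 to 16590818, was the brightest and gave -1.84, -1.96, -2.15 and -0.63 in fld cells, against -1.5, -1.81, -1.44 and -1.30 in control cells, with the library labelled fld replicate 4 again the highest and a difference of -0.13 (SE 0.31, adjusted p = 0.887). Because the library labelled fld replicate 4 goes against its label on these probes, the calls lost without it are named below. Lpin2, a second member of the family, had levels of 2.23, 2.54, 2.36 and 2.25 in fld cells, against 2.32, 2.29, 2.42 and 2.48 in control cells, which overlapped, with a difference of -0.032 (SE 0.16, adjusted p = 0.951).

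All 18 macrophage markers measured, such as Adgre1, Csf1r and Lyz2, were well above the scanner's background on all 8 arrays, and 0 of them were called. Their levels, summed on the linear scale relative to the array's 75th percentile, ranged from 1494 to 1731 in fld cells and from 1361 to 1556 in control cells. The 4 untreated fld arrays shared 1 slide and 1 scan and the 4 untreated control arrays shared another, so slide and genotype cannot be told apart. Correlations of levels across features ran from 0.986 to 0.991 within fld arrays, from 0.984 to 0.992 within control arrays and from 0.978 to 0.988 between the groups.

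Of 17466 features tested, 918 were called (5.26%), 879 of them higher in fld cells (5.03%) and 39 lower (0.223%). The groups did not overlap for 2674 features (15.3%), 2271 higher in fld cells (13%) and 403 lower (2.31%). Among the 16060 features well above background on all 8 arrays, 598 were called (3.72%), 563 higher and 35 lower. These counts rested in part on single libraries: 351 features were called without fld replicate 1, 501 without the library labelled fld replicate 4, 421 without control replicate 2 and 471 without control replicate 3. Cyclic loess, which removes shifts that depend on signal, gave 670 calls (575 higher and 95 lower), and quantile normalization gave 526 (467 higher and 59 lower). Centring each array on its median instead gave 773 calls, of which 85.3% were higher against 95.8% in the main fit, and moved the median difference of all features from 0.060 to -0.12.

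The calls were spread unevenly over the range of signal. Among the 8733 features below the median signal 845 were called (9.68%), 824 of them higher, and among the 8733 above it 73 were called (0.836%), 55 higher (0.63%) and 18 lower (0.206%). Above the median signal, quantile normalization called 40 features and loess 49. Among the 1746 dimmest features the median difference was 0.53 and 337 were called, 333 of them higher. Their median level lay between -4.48 and -4.23 on the fld arrays and between -4.92 and -4.73 on the control arrays, without overlap, and their median intensity was 22.0 to 28.8 on the fld arrays and 17.2 to 22.0 on the control arrays. Loess brought the median difference of the dimmest features to 0.22 and quantile normalization to 0.24. Symbols of olfactory and vomeronasal receptors, receptors of sensory neurons, were grouped after their values were seen: 125 of 385 were called, all higher, at a median difference of 0.72. The part of this shift in the calls of other dim features was not tested.

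**Figure D1:**
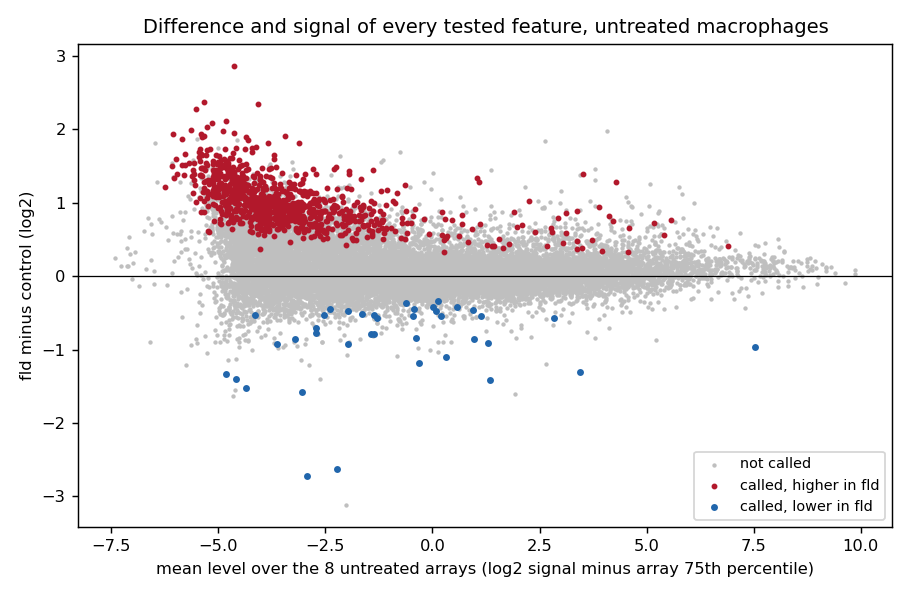
Difference between fld and control cells (log2, vertical axis) against the mean level over the 8 untreated arrays (log2 signal minus the array's 75th percentile, horizontal axis), 1 point for each of 17466 features. The 879 features called higher in fld (red) crowd at low signal, while the 39 called lower (blue) are spread along the axis.

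Genes of the circadian clock were among the largest falls, led by Nr1d1 at 6.19-fold lower on 1 of its 3 probes. The clock is a loop of transcription factors in which BMAL1 (gene Arntl) and CLOCK switch on Per and Cry genes, whose proteins shut them off, and the Nr1d genes, whose proteins repress Arntl. The output factors Dbp and Tef are driven by the same loop. Of 22 genes listed, 19 were measured: 4 were called lower (Nr1d1, Tef, Dbp and Per1), or 21.1%, against 0.223% of all features, 1 was called higher (Per2), or 5.26%, against 5.03%, and 14 were not called, at a median difference of -0.095 against 0.060 over all features. In these whole samples, fewer cells of a type and less RNA per cell cannot be told apart, here and in the results that follow.

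Nr1d1, the nuclear receptor REV-ERB alpha, had levels of -3.58, -3.85, -4.01 and -2.73 in fld cells, against -1.5, -1.19, -0.52 and -0.43 in control cells. Every fld array lay below every control array, and the difference was -2.63 (SE 0.46, adjusted p = 0.00568), or 6.19-fold lower. The library labelled fld replicate 4 was the nearest of its group to the controls, and without it the difference was -2.90. The probes of this gene disagreed: the brightest on average over the 16 arrays, at 98878251 to 98878753 on chromosome 11, gave this value, and the others differed by -0.31 (98881057 to 98881116) and 0.48 (98884160 to 98884219), neither called among all probes. The size and the direction of the Nr1d1 difference thus depend on the probe. Thra, the thyroid hormone receptor alpha gene, overlaps Nr1d1 by 1075 bases in the RefSeq annotation of GRCm38.p6. Its levels were 0.54, 1.09, 0.70 and 1.01 in fld cells, against 1.48, 1.55, 2.01 and 1.95 in control cells, also without overlap, with a difference of -0.91 (SE 0.23, adjusted p = 0.0314). Both of its probes were lower in fld cells, by 0.91 and 0.81 on the log2 scale.

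Tef, a PAR bZIP factor of the clock's output, had levels of -0.17, -0.38, -0.53 and 0.14 in fld cells, against 0.89, 0.66, 0.95 and 0.94 in control cells. The groups were apart by more than the spread within either, and Tef was 2.14-fold lower, a difference of -1.10 (SE 0.17, adjusted p = 0.00274). All 3 of its probes were lower, at -1.10, -1.62 and -0.65. Dbp, a second PAR bZIP factor, had levels of 0.57, 0.39, 0.44 and 0.78 in fld cells, against 1.46, 0.88, 2.07 and 1.17 in control cells. Control replicate 3 was the highest and all fld arrays lay below all controls, with a difference of -0.85 (SE 0.20, adjusted p = 0.0219).

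Per1, whose protein represses BMAL1 and CLOCK, had levels of 0.73, 0.71, 0.76 and 0.65 in fld cells, against 1.0, 1.11, 1.40 and 1.21 in control cells. The fld arrays were tightly grouped below the controls, with a difference of -0.46 (SE 0.12, adjusted p = 0.0315). Per2, a close relative of Per1, ran the other way, at -2.0, -2.55, -2.49 and -2.07 in fld cells, against -2.75, -3.10, -3.09 and -2.93 in control cells, a difference of 0.69 (SE 0.17, adjusted p = 0.0261). Its second probe gave -0.72, so the mean of both probes was -0.019 and the direction of Per2 depends on the probe. Nr1d2, the relative of Nr1d1, was not called: its levels were 0.13, 0.33, -0.42 and 0.18 in fld cells, against 0.80, 1.02 and 1.04 in the 3 controls left after control replicate 2 was dropped for a flagged spot, and the difference was -0.90 (SE 0.27, adjusted p = 0.0702). The activators were not called: Arntl differed by 0.28 (SE 0.16, adjusted p = 0.376) and Clock by -0.042 (SE 0.15, adjusted p = 0.928), and Cry1 and Cry2 by 0.33 and -0.37, none of them called. Without the library labelled fld replicate 4, 3 clock genes stayed called lower and Per2 was no longer called. Quantile normalization and loess each called 4 clock genes lower.

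**Figure D2:**
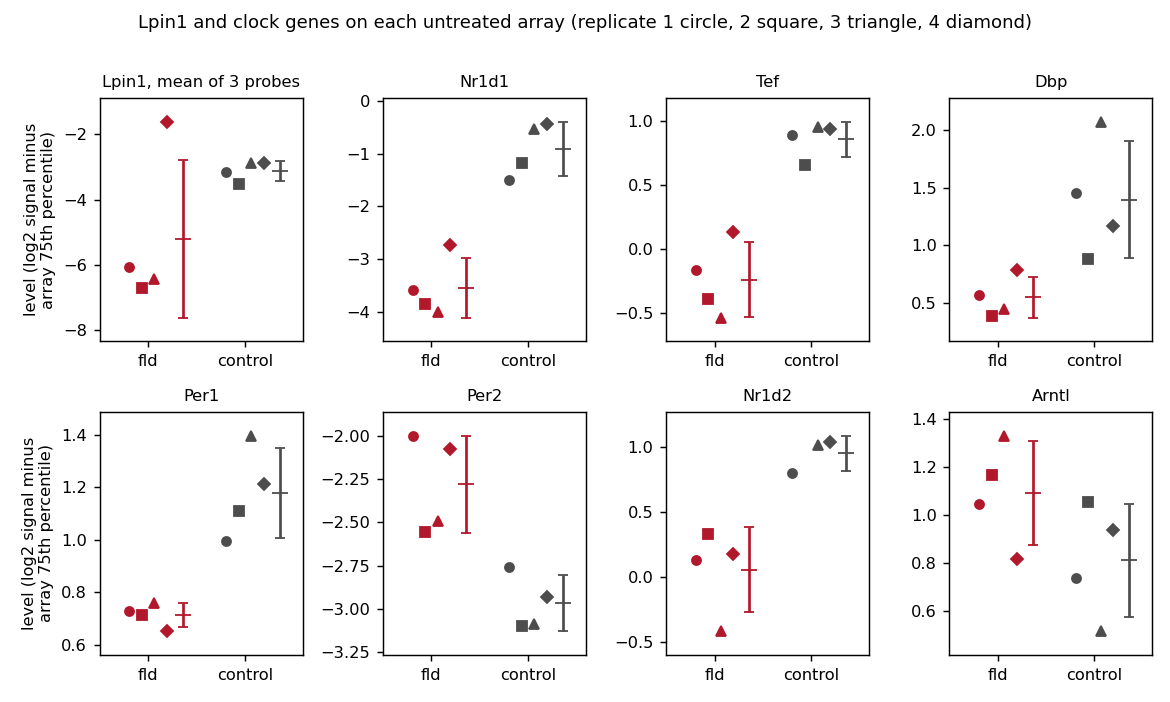
Levels on each untreated array (log2 signal minus the array's 75th percentile) of Lpin1, as the mean of 3 probes, and of 7 clock genes, with fld arrays in red on the left and control arrays in grey on the right of each panel. Markers show replicates and bars show mean ± SD; the groups are apart for Nr1d1, Tef, Dbp, Per1, Per2 and Nr1d2 and overlap for Lpin1 and Arntl.

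The bases before the transcription start of the clock genes were searched because BMAL1 and CLOCK bind the E-box CACGTG, PAR bZIP factors the D-box TTATGTAA, and ROR and REV-ERB receptors the sequence AGGTCA. Each was sought on both strands in the 250 bases before each RefSeq start (GRCm38.p6), and 27025 genes had such a window. An E-box was found for 5 of the 15 measured clock genes with a window (33.3%), against 6.86% of all genes. The D-box was found for 1 of 15, against 0.977%, and AGGTCA for 4 of 15 (26.7%), against 15.8%. Of the 4 genes called lower, Tef and Per1 held an E-box, and the windows of Nr1d1 and Dbp held none of these letters. A match describes the letters in this window and is not evidence of binding. The windows with an E-box are shown 5′ to 3′ on the gene's strand, with the E-box in capitals, for the starts of Tef at chr15:81802423-81802672 and chr15:81811164-81811413 and the first start of Per1 at chr11:69098699-69098948, all on the plus strand.
Tef, first start: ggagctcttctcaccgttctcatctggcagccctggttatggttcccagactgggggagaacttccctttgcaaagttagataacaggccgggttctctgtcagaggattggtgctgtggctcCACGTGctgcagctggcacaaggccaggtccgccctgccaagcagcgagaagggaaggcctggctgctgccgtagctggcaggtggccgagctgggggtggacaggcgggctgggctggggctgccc
Tef, second start: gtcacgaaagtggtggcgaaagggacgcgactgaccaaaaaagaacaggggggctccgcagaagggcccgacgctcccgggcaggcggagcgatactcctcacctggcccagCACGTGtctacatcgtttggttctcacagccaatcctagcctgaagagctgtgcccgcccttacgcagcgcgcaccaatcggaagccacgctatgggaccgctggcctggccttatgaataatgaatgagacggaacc
Per1, first start: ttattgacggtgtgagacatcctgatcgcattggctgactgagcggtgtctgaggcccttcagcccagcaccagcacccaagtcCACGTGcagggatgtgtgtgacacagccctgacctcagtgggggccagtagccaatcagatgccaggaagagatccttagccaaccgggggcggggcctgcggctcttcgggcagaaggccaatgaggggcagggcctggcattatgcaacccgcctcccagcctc

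Interferon-stimulated genes, which encode antiviral effectors, guanylate-binding proteins and chemokines, had higher levels in fld cells for nearly all members, though few passed the test. Of 58 genes listed, 56 were measured, and 55 of them were higher in fld cells (98.2%), against 60.5% of all features and 55.3% of those above the median signal. Their median difference was 0.71. The test called 3 of them higher (5.36%): Cxcl9, Gbp2 and Socs1. That share is close to the 5.03% of all features called higher and above the 0.63% of features above the median signal, where most of these genes lay. For 10 of them the fld arrays were all higher (17.9%), against 13% of all features and 3.9% of those above the median signal. An unadjusted p under 0.05 was found for 24 (42.9%), against 18.6% and 8.58%.

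Control replicate 1 stood apart from the other controls on these genes. The mean level of the 56 genes was 4.20, 3.55, 3.94 and 3.82 in fld cells, against 3.83, 2.92, 2.71 and 2.94 in control cells. Control replicate 1 thus lay within the fld range, and it was the highest of the 4 controls for 56 of 56 genes, against 32.5% of all features. Leaving it out therefore had to raise the differences of these genes, so the gain in calls is given only as a description. Without it the median difference was 0.94 and 13 genes were called (5.65% of all features were called in that fit), whereas without the library labelled fld replicate 4 the median was 0.70 and 1 gene was called. Leaving out fld replicate 1, control replicate 2 or control replicate 4 gave 0 calls. Leaving out fld replicate 2, fld replicate 3 or control replicate 3 gave 1. Quantile normalization called 0 of the 56 and loess 1, with medians of 0.64 and 0.65.

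Gbp2, a guanylate-binding protein, had levels of 5.33, 4.63, 4.79 and 4.93 in fld cells, against 4.5, 3.13, 3.5 and 3.43 in control cells. Control replicate 1 was the nearest to the fld arrays, and the difference was 1.28 (SE 0.35, adjusted p = 0.0493). Socs1, an inhibitor of cytokine signalling through JAK kinases, had levels of 4.5, 3.77, 4.61 and 4.56 in fld cells, against 4.03, 3.23, 2.82 and 3.59 in control cells. Fld replicate 2 lay below control replicate 1, so the groups overlapped, with a difference of 0.94 (SE 0.24, adjusted p = 0.0325). Cxcl9, a chemokine for T cells, was at -2.25, -3.21, -4.23 and -3.24 in fld cells, against -4.46, -5.10, -4.56 and -5.83 in control cells, and was well above background on all 4 fld arrays and on 2 of the control arrays, with a difference of 1.76 (SE 0.42, adjusted p = 0.0255). Its called difference was lost under quantile normalization (adjusted p = 0.0852) and loess (adjusted p = 0.0835).

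Other genes of the list were not called. Cxcl10, a related chemokine, had levels of 5.80, 4.39, 4.67 and 5.42 in fld cells, against 4.84, 2.97, 1.73 and 2.82 in control cells, a difference of 1.98 (SE 0.87, adjusted p = 0.235). Cxcl11 differed by 1.64 (SE 0.58, adjusted p = 0.122), and without control replicate 1, its highest control, by 2.16 (adjusted p = 0.0302). Gbp5 and Gbp3 did not overlap between groups, at differences of 1.46 (SE 0.44, adjusted p = 0.0695) and 1.26 (SE 0.35, adjusted p = 0.0508). Isg15, a ubiquitin-like modifier, had a difference of 0.86 (SE 0.39, adjusted p = 0.248). Ifnb1, the gene of interferon beta, had levels of -0.76, -2.38, -1.10 and -2.15 in fld cells, against -1.29, -2.40, -3.74 and -3.79 in control cells, which overlapped, with a difference of 1.21 (SE 0.67, adjusted p = 0.36). With LPS, the median difference of the 56 genes was 0.078.

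**Figure D3:**
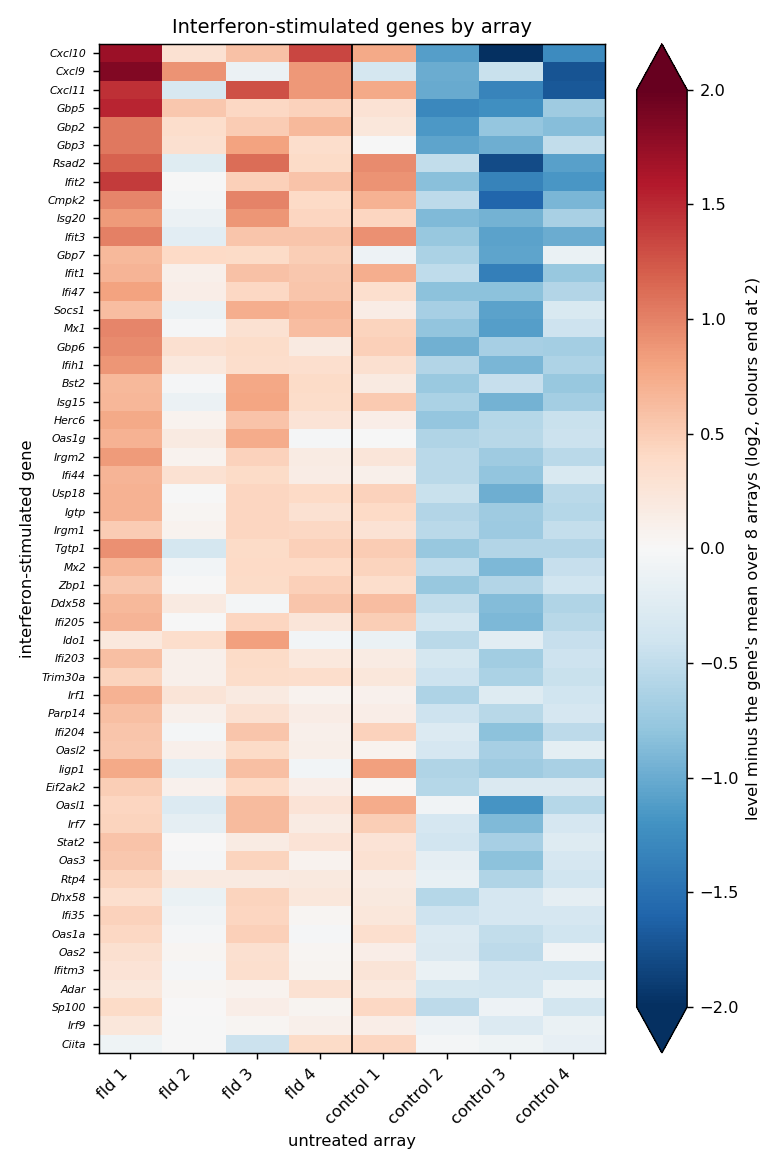
Level of 55 of the 56 interferon-stimulated genes on the 8 untreated arrays, as the log2 level minus the gene's own mean over those arrays, with the 4 fld arrays left of the line and the 4 control arrays right of it. Genes run from the largest difference at the top to the smallest, and control replicate 1 is the column on the right of the line that shares the red of the fld arrays.

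The windows of these genes were searched in the same way for the core of the interferon-stimulated response element, 2 copies of TTTC with 2 bases between them, for the STAT site TTCNNNGAA, and for the NF-kB site of GGGA and TTTCC with 1 base between them. The response element core was found for 22 of the 41 measured interferon genes with a window (53.7%), against 3.46% of all genes. The STAT site was found for 11 of 41 (26.8%), against 8.13%, and the NF-kB site for 1 of 41, against 0.414%. The 3 windows below are those of Gbp2 and Socs1, which were called, and of Gbp3, which came near the threshold but was not called. The response element core is in capitals on either strand. Cxcl9 was also called, and none of these 3 sequences was found for it. In Socs1 and Gbp3, 2 matches overlap each other. Gbp2 lies at chr3:142620413-142620662 on the plus strand, Socs1 at chr16:10785537-10785786 on the minus strand, and the first start of Gbp3 at chr3:142559794-142560043 on the plus strand.
Gbp2: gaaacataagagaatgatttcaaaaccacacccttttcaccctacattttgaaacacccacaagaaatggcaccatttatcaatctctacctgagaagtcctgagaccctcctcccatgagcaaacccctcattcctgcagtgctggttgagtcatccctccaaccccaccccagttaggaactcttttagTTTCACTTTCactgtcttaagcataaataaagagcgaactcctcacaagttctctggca
Socs1: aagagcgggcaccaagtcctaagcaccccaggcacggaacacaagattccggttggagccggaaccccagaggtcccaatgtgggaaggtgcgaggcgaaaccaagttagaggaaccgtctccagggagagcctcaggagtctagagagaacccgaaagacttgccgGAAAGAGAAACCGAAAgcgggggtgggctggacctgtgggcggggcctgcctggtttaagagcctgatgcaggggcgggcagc
Gbp3, first start: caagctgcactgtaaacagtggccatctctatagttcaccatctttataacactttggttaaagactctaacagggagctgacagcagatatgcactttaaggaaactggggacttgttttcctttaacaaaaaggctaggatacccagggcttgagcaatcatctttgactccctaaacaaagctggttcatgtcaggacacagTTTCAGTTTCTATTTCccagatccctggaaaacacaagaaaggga

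Genes of NF-kB signalling and its feedback were also mostly higher: 31 of 32 had a higher level in fld cells, at a median difference of 0.33, and 4 were called higher (Nos2, Traf1, Bcl2a1b and Nfkb1), or 12.5%, against 5.03% of all features and 0.63% of those above the median signal. Their mean level was 3.24, 3.20, 3.34 and 2.95 in fld cells, against 2.79, 2.66, 2.82 and 2.87 in control cells. Unlike the interferon genes, the 4 controls lay close together and all below the fld arrays, and control replicate 1 was the highest control for 7 of the 32 genes. Without the library labelled fld replicate 4, 2 of the 32 were called. Traf1, Bcl2a1b and Nfkb1 lost their calls there (adjusted p = 0.0633, 0.0849 and 0.0641), so the 2 were not both among these 4. Quantile normalization and loess each called 1.

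Traf1, an adaptor of TNF receptors, had levels of 4.58, 4.16, 5.12 and 4.28 in fld cells, against 4.0, 3.78, 3.36 and 3.72 in control cells. The groups were apart, with fld replicate 3 the highest, and the difference was 0.82 (SE 0.22, adjusted p = 0.0467). Bcl2a1b, an anti-apoptotic BCL2 relative in a cluster of near-identical copies whose signals a probe may share, had levels of 6.10, 5.90, 5.91 and 5.91 in fld cells, against 5.62, 5.49, 4.66 and 4.98 in control cells. The fld arrays were all higher, with a difference of 0.76 (SE 0.20, adjusted p = 0.0413). Nfkb1, the gene of the p105 and p50 subunit, had levels of 3.72, 3.64, 3.79 and 3.61 in fld cells, against 3.30, 3.16, 3.28 and 3.47 in control cells. The groups did not overlap, with a difference of 0.39 (SE 0.10, adjusted p = 0.0374), and the call was lost under loess (adjusted p = 0.129). Nos2, the inducible nitric oxide synthase, was well above background on all 4 fld arrays and on 0 of 4 control arrays. Its levels were -4.35, -5.18, -4.55 and -4.5 in fld cells, against -5.87, -7.15, -7.30 and -6.24 in control cells, and fld cells were at least 1.49-fold higher (adjusted p = 0.00782). This bound, 0.57 on the log2 scale, is close to the median difference of 0.53 of the dimmest features. The part of that shift in the call was not tested. Feedback inhibitors of the same list were not called: Tnfaip3 differed by 0.48 (SE 0.14, adjusted p = 0.0568) and Nfkbia by 0.35 (SE 0.13, adjusted p = 0.141).

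None of the 42 cytokine and chemokine genes measured was called by limma, though 34 were higher, 12 had an unadjusted p under 0.05 (28.6%, against 18.6% of all features) and the median difference was 0.44. Without control replicate 1, 3 were called. Leaving out control replicate 3 gave 1 call, and leaving out any other single array gave 0. Il6 had levels of 3.5, 3.17, 3.97 and 3.53 in fld cells, against 2.69, 2.29, -0.60 and 2.40 in control cells. All fld arrays lay above all controls, and control replicate 3 lay far below the rest of its group, with a difference of 1.85 (SE 0.53, adjusted p = 0.0584). Il1b, at 6.66, 6.95, 7.56 and 6.68 in fld cells, against 6.35, 6.40, 5.94 and 6.54 in control cells, also did not overlap, with a difference of 0.66 (SE 0.19, adjusted p = 0.0628). Tnf had levels of 2.52, 1.93, 2.03 and 1.87 in fld cells, against 2.07, 1.08, 1.71 and 1.39 in control cells, in which control replicate 1 exceeded 3 of the fld arrays, and a difference of 0.52 (SE 0.20, adjusted p = 0.154). Ccl2 (0.47, adjusted p = 0.772), Ptgs2 (0.66, adjusted p = 0.387) and the anti-inflammatory cytokine Il10 (-0.41, adjusted p = 0.628) overlapped between groups.

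In the Toll-like receptor pathway 2 of 39 genes were called, both higher, a share of 5.13% that is close to the 5.03% of all features. Irak2, a kinase downstream of the receptors, had levels of 2.59, 2.33, 2.09 and 2.20 in fld cells, against 1.78, 1.52, 1.97 and 1.25 in control cells, without overlap, and a difference of 0.67 (SE 0.18, adjusted p = 0.0479). Tlr5, the receptor of flagellin, was at -3.56, -3.83, -3.70 and -3.36 in fld cells, against -4.60, -4.77, -4.25 and -4.85 in control cells, also without overlap, and differed by 1.01 (SE 0.20, adjusted p = 0.0106). The median over the pathway was 0.043, and 24 of its 39 genes were higher.

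Genes of cell death and the BCL2 family gave 3 calls of 30 (10%, against 5.03% of all features called higher): Bcl2a1b, described above, Fas and Ripk3, all higher. The median over the list was 0.24. Fas, a death receptor, had levels of 2.83, 2.59, 2.90 and 2.49 in fld cells, against 2.07, 1.73, 2.52 and 2.06 in control cells. Control replicate 3 overlapped the lowest fld array, and the difference was 0.61 (SE 0.15, adjusted p = 0.0304). Ripk3, the kinase of necroptosis, was 3.70, 3.61, 3.5 and 3.71 in fld cells, against 2.94, 3.07, 3.19 and 3.36 in control cells, without overlap, with a difference of 0.48 (SE 0.13, adjusted p = 0.0463). Of 39 cell cycle genes, 1 was called (2.56%), Cdkn1a, the gene of the cell cycle inhibitor p21. It had levels of 4.39, 3.63, 3.77 and 3.46 in fld cells, against 3.06, 2.94, 2.60 and 3.08 in control cells. The lowest fld array stood above the highest control, and the difference was 0.89 (SE 0.21, adjusted p = 0.0258).

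The 16 measured targets of the glucocorticoid receptor held 3 calls (18.8%, against 5.26% of all features), Cdkn1a and Hif3a higher and Per1 lower. Hif3a, a relative of the hypoxia-inducible factors, had levels of -0.93, -1.08, -1.15 and -1.06 in fld cells, against -1.70, -1.95, -1.98 and -1.59 in control cells and a difference of 0.75 (SE 0.20, adjusted p = 0.0449), while its second probe gave -0.34. The median over these targets was 0.31.

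Among the genes of glycerolipid synthesis, the pathway in which lipin-1 acts, 0 of 38 measured were called by limma, 4 had an unadjusted p under 0.05, and the median difference was -0.0073. Gpat3, which makes lysophosphatidic acid, differed by 0.51 (SE 0.21, adjusted p = 0.199), Dgat1 by -0.11 (SE 0.096, adjusted p = 0.594) and Dgat2, both of which make triacylglycerol, by -0.30 (SE 0.19, adjusted p = 0.435). The 3 probes of Dgat2 ran from -0.30 to 0.15. Likewise 0 of 25 diacylglycerol kinases and sensors were called, with 5 at an unadjusted p under 0.05 and a median of -0.10.

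Lipid droplet genes gave 2 calls of 23, both higher and both below the median signal, a share of 8.7% against 5.26% of all features and 9.68% of those below the median signal. Cidec, a droplet fusion protein, had levels of -3.27, -3.18, -2.93 and -3.40 in fld cells, against -4.25, -4.27, -4.47 and -3.81 in control cells, without overlap, and a difference of 1.01 (SE 0.24, adjusted p = 0.0269). Plin5, a droplet coat protein of oxidative tissues, had levels of -3.54, -3.59, -3.62 and -3.47 in fld cells, against -4.37, -4.22, -4.5 and -4.26 in control cells, likewise without overlap, and a difference of 0.78 (SE 0.18, adjusted p = 0.0223). Plin2, the main droplet coat protein of macrophages, had levels of 5.91, 6.03, 6.40 and 5.75 in fld cells, against 6.5, 6.54, 5.65 and 5.94 in control cells, which overlapped, with a difference of -0.14 (SE 0.23, adjusted p = 0.828).

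In fatty acid oxidation 1 of 37 genes was called (2.7%, below the 5.26% of all features), the nuclear receptor gene Ppard, at -2.88, -3.17, -3.25 and -3.11 in fld cells, against -3.54, -3.66, -3.69 and -3.39 in control cells and a difference of 0.47 (SE 0.10, adjusted p = 0.0179). Its call was lost under quantile normalization (adjusted p = 0.0903) and loess (adjusted p = 0.0826). Cpt1a, the carnitine transferase that admits fatty acids to mitochondria, differed by 0.29 (SE 0.15, adjusted p = 0.329), and Pparg, a nuclear receptor of lipid storage, by 0.26 (SE 0.26, adjusted p = 0.658). Neither was called.

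For sterol and fatty acid synthesis 34 of 41 genes were higher, at a median of 0.14, and 0 were called by limma, with 2 at an unadjusted p under 0.05. Fads2, a fatty acid desaturase, came nearest, with a difference of 0.48 (SE 0.14, adjusted p = 0.0599), while Srebf2, a transcription factor of sterol synthesis, differed by 0.069 (SE 0.15, adjusted p = 0.867). With LPS the median of the list was -0.15. Genes of cholesterol handling (26 measured), lysosomes and autophagy (47), oxidative phosphorylation (47) and glycolysis (36) also gave 0 calls by limma, with 2, 2, 4 and 4 genes at an unadjusted p under 0.05.

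**Figure D4:**
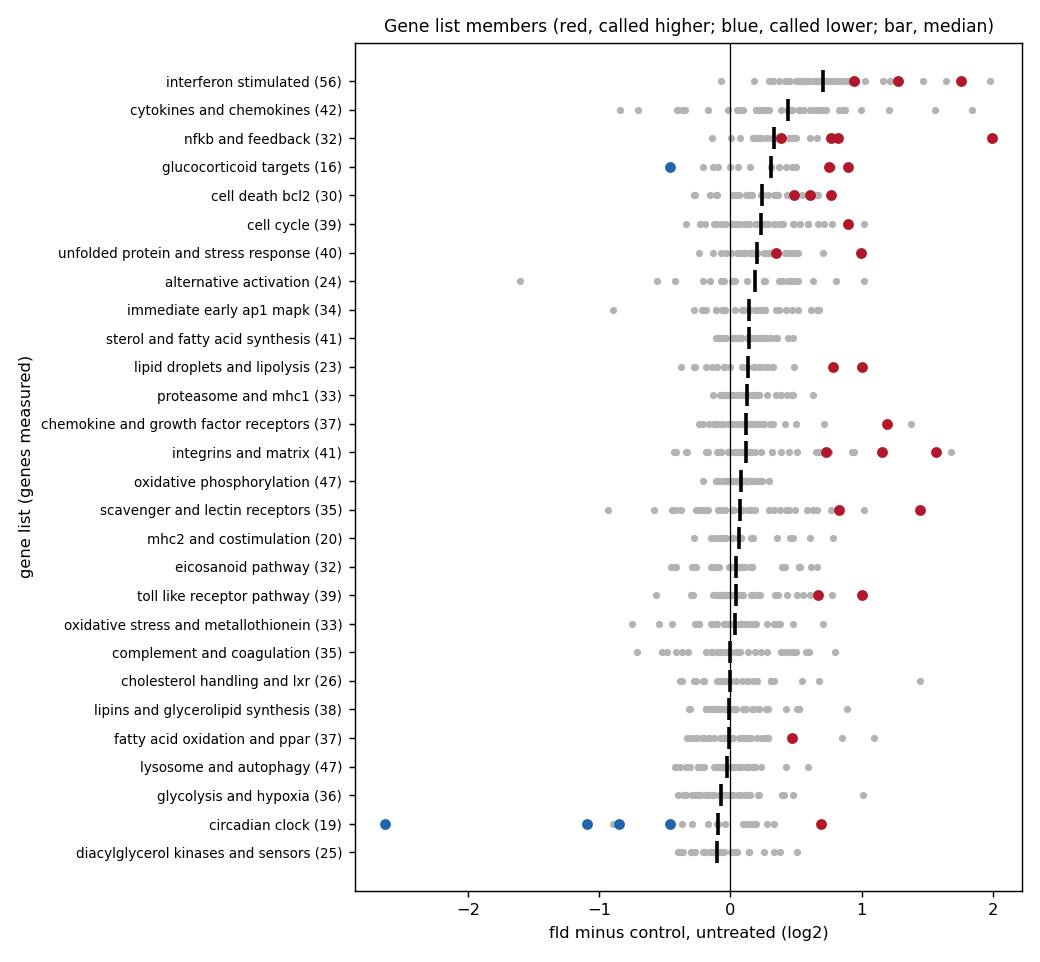
Difference between fld and control cells (log2) of each member of 28 gene lists, 1 row a list, with the number measured in brackets and lists ordered by their median (black bar). The interferon list has the highest median, 0.71, and blue points, called lower, occur only for clock genes and for Per1 in the glucocorticoid list.

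Surface and matrix genes gave further calls, all higher. Scavenger and lectin receptors gave 2 of 35 (5.71%) and integrin and matrix genes 3 of 41 (7.32%). Chemokine and growth factor receptors gave 1 of 37 (2.7%). Over all features 5.03% were called higher, and 9.68% of those below the median signal were called. Axl, a receptor kinase for apoptotic cells, had levels of 0.033, -0.79, -1.32 and -0.59 in fld cells, against -1.37, -2.38, -2.36 and -2.36 in control cells. Control replicate 1 lay above the other controls and just below the lowest fld array, and the difference was 1.45 (SE 0.31, adjusted p = 0.0153). Stab2, a scavenger receptor for hyaluronan, had levels of -1.17, -1.39, -1.28 and -1.41 in fld cells, against -2.13, -2.40, -1.96 and -2.09 in control cells, clearly apart, and a difference of 0.83 (SE 0.13, adjusted p = 0.00274) that stayed called in each alternative run. Mmp14, a membrane-bound collagenase, had levels of 5.70, 5.70, 5.66 and 5.09 in fld cells, against 4.95, 4.53, 4.81 and 4.95 in control cells. The library labelled fld replicate 4 was the lowest of its group and still above all controls, with a difference of 0.73 (SE 0.19, adjusted p = 0.04).

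Has1, a hyaluronan synthase, had levels of -3.30, -2.84, -2.08 and -3.37 in fld cells, against -4.04, -4.11, -4.37 and -3.70 in control cells, without overlap, and a difference of 1.16 (SE 0.31, adjusted p = 0.0418). Tnfaip6, a hyaluronan-binding protein induced by TNF, was well above background on all 4 fld arrays and on 0 controls, and was at least 1.49-fold higher (adjusted p = 0.0135). As for Nos2, this bound (0.57 on the log2 scale) is close to the median difference of 0.53 of the dimmest features. Cx3cr1, the fractalkine receptor, was well above background on all 4 fld arrays and on 1 control array, with levels of -4.01, -4.14, -4.41 and -4.06 in fld cells, against -5.62, -4.85, -5.82 and -5.10 in control cells and a difference of 1.20 (SE 0.25, adjusted p = 0.0144). Genes of the unfolded protein and stress response gave 2 calls of 40 (5%), against 5.26% of all features. Of the chaperones, Dnajb1 had levels of 4.24, 4.10, 4.08 and 4.14 in fld cells, against 3.65, 3.66, 3.94 and 3.91 in control cells and a difference of 0.35 (SE 0.088, adjusted p = 0.0333). Hspb1 differed by 1.0 (SE 0.19, adjusted p = 0.00981) on the probe used, which the files place on chromosome 13. Its other probe, placed on chromosome 5, gave -1.13 and was not called among all probes. As the 2 probes lie on different chromosomes, no direction is given for Hspb1.

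The 12 highest and 12 lowest called features with a gene symbol, among those well above background on all 8 arrays and without overlap, were taken from 455 (429 higher and 26 lower). The highest was Ces2f, a carboxylesterase, with levels of -2.71, -2.45, -2.61 and -2.17 in fld cells, against -4.28, -4.05, -4.71 and -4.53 in control cells, a 3.75-fold difference (1.91, adjusted p = 0.0033). Plagl1, an imprinted zinc finger gene, had levels of -2.14, -2.27, -2.26 and -2.16 in fld cells, against -3.89, -4.26, -4.43 and -3.5 in control cells and a difference of 1.81 (SE 0.19, adjusted p = 0.000412), while its second probe gave 0.51. The groups were far apart for both genes. Efna5, an ephrin ligand, was -1.15, -1.32, -0.93 and -1.56 in fld cells, against -2.54, -2.19, -3.05 and -2.89 in control cells, a difference of 1.43 (SE 0.19, adjusted p = 0.00143), and its second probe gave 0.31. Prrg4, a transmembrane Gla protein, was -1.36, -1.69, -1.43 and -1.82 in fld cells, against -2.83, -3.12, -3.16 and -3.03 in control cells, a difference of 1.46 (SE 0.14, adjusted p = 0.000412). The other highest features were Serpinb9g (1.59), Lingo4 (1.48), Olfr638 (1.48), 1700084M14Rik (1.47), Tceal6 (1.46), Axl, 2900079G21Rik (1.41) and Gkn2 (1.40). All 12 lay below the median signal.

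At the other end, after Nr1d1, came Cd209a, a C-type lectin of dendritic cells, with levels of -4.44, -3.62, -3.10 and -4.22 in fld cells, against -2.24, -2.39, -2.73 and -1.68 in control cells. Every fld array lay below every control, and the difference was -1.58 (SE 0.28, adjusted p = 0.0063). Nav1, a microtubule-associated protein, had levels of -1.42, -0.56, -0.76 and -0.87 in fld cells, against 0.18, 0.83, -0.42 and 0.53 in control cells, without overlap, and both of its probes were lower (-1.18 and -0.84), the first with an adjusted p of 0.0155. Fcrl5, an Fc receptor-like protein of B cells, had levels of -2.42, -2.63, -2.69 and -1.96 in fld cells, against -1.22, -1.65, -1.40 and -1.73 in control cells and a difference of -0.92 (SE 0.18, adjusted p = 0.0103). Tjp1, a tight junction protein, differed by -0.92 (SE 0.23, adjusted p = 0.0296) and Lefty1, a ligand that antagonises Nodal, by -0.86 (SE 0.20, adjusted p = 0.0223). Whrn, a scaffold protein of hair cells, differed by -0.85 (SE 0.15, adjusted p = 0.0063), Ptpn14, a tyrosine phosphatase, by -0.79 (SE 0.14, adjusted p = 0.00614), and Grb10, an imprinted adaptor of insulin signalling, by -0.70 (SE 0.15, adjusted p = 0.0162). The second probes of Whrn and Grb10 gave 0.55 and 1.01, so the direction of both depends on the probe. The other probes of Ptpn14 gave 0.070 and -0.45.

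Among the called features with a symbol, 70 were well above background on all fld arrays and on no control array. Features entered the test by clearing background throughout 1 group, and 57 of the 70 did so in fld groups alone, so their number is given as a description. Whether called or not, 128 features showed this pattern and 4 the reverse. The largest such bounds belonged to Syt1, a calcium sensor of vesicle fusion, at least 2.83-fold higher, to Dpf3, a chromatin factor, at least 2.73-fold, to Adh1, an alcohol dehydrogenase, at least 2.58-fold, and to the vomeronasal receptor Vmn1r51, at least 2.51-fold. Syt1 also cleared background throughout the LPS-treated controls (adjusted p = 0.00188), and the other 3 entered through fld groups alone. All 4 were among the 1746 dimmest features.

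Above the median signal, where the median difference of all features was 0.021, 68 of the 73 called features had a symbol, 52 higher and 16 lower. Those named here beyond the genes above were chosen after their values were seen. The highest was AW112010, a transcript induced by interferon, with levels of 4.92, 4.39, 3.58 and 3.93 in fld cells, against 3.34, 2.22, 3.04 and 2.64 in control cells, without overlap, and a difference of 1.40 (SE 0.30, adjusted p = 0.0162). Col18a1, a basement membrane collagen, had levels of 1.94, 1.65, 1.51 and 1.76 in fld cells, against 0.58, 0.69, -0.094 and 0.32 in control cells and a difference of 1.34 (SE 0.16, adjusted p = 0.000761). Rnd1 differed by 1.03 (SE 0.19, adjusted p = 0.00759), and Hcar2, the receptor of niacin and hydroxybutyrate, by 0.76 (SE 0.19, adjusted p = 0.0283). Signalling genes among them were Nod2, a sensor of bacterial peptidoglycan, with a difference of 0.70 (SE 0.18, adjusted p = 0.0389), and Jak2, a kinase of cytokine receptors, with 0.59 (SE 0.15, adjusted p = 0.0364). Lower in fld cells were Hal, histidine ammonia lyase, at 2.23, 3.24, 2.84 and 2.84 in fld cells, against 4.42, 4.86, 3.10 and 4.02 in control cells, with overlap and a difference of -1.31 (SE 0.36, adjusted p = 0.0491), and Mapk12, a p38 kinase, by -0.55 (SE 0.10, adjusted p = 0.00708).

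Of the 70 genes chosen by the fixed rule, 57 were called, and 12 of these stayed called in each alternative run that tested them: Ces2f, Plagl1, Lingo4, Olfr638, Prrg4, Tceal6, Efna5, Gkn2, Tef, Fcrl5, Syt1 and Stab2. The filter on all 8 untreated arrays left 48 of the 57 to test, without Syt1. The largest losses among the 57 came with normexp background correction and quantile normalization (39) and without fld replicate 1 (32). Leaving out control replicate 2 ended 24 calls, and leaving out control replicate 3 ended 23. Loess ended the call of 14 (1700084M14Rik, Ppard, Cxcl9, Gbp2, Traf1, Bcl2a1b, Irak2, Dnajb1, Cdkn1a, Has1, Mmp14, Hif3a, Ripk3 and Themis). Quantile normalization ended that of 20, the same 14 and Plin5, Socs1, Tnfaip6, Per2, Fas and Zbtb46. Leaving out the library labelled fld replicate 4 ended the call of 18 (1700084M14Rik, Thra, Grb10, Dpf3, Plin5, Cxcl9, Gbp2, Socs1, Traf1, Bcl2a1b, Irak2, Dnajb1, Per1, Per2, Hif3a, Ripk3, Themis and Zbtb46). Outside the rule, it ended that of Nfkb1, Hcar2, Jak2 and Hal (adjusted p = 0.0641, 0.0693, 0.0558 and 0.0974). Nr1d1, Dbp, Cd209a, Cdkn1a and Fas remained called without that library. Of the genes outside the rule, quantile normalization ended the calls of Nfkb1, Hcar2, Jak2, Nod2 and Hal (adjusted p = 0.159, 0.0509, 0.0590, 0.0590 and 0.0508). Loess ended those of Nfkb1, Hcar2 and Jak2 (adjusted p = 0.129, 0.0745 and 0.0616).

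Genes in the 5 Mb on either side of Lpin1 were listed because a region of chromosome 12 could differ between mutants and controls along with the mutation. Of 29 features there, 1 was called, where 5.26% of all features were called. It was LOC432637, at -1.5, -1.98, -2.0 and -1.75 in fld cells, against -2.69, -2.92, -2.93 and -2.58 in control cells and a difference of 0.97 (SE 0.20, adjusted p = 0.0135). The median difference of the 29 was 0.086 and the range -0.33 to 0.97. Within 2 Mb 0 of 13 features were called by limma, with 0 at an unadjusted p under 0.05.

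Markers of other cells showed which types the adherent samples also held. All 20 B cell markers were well above background on all 8 arrays, with sums of 467 to 625 in fld cells and 468 to 732 in control cells, and 17 of the 20 were lower in fld cells. Higher levels were found for 3 of the 20 (15%), against 60.5% of all features and 55.3% of those above the median signal. Of the 20, 1 was called, lower in fld cells (5%, against 0.223% of all features called lower). The median over the list was -0.14, and Fcrl5 is a gene of the same cells. Whether B cell content took part in these values was not tested.

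T and NK cell markers had sums of 7.41 to 10.3 in fld cells and 8.48 to 11.2 in control cells, and 2 of 18 measured were called (11.1%, against 5.26% of all features and 9.68% of those below the median signal). Cd3e, a T cell receptor subunit, had levels of -0.42, -0.90, -0.72 and -0.84 in fld cells, against -1.48, -1.5, -1.77 and -1.52 in control cells and a difference of 0.85 (SE 0.18, adjusted p = 0.0132), while Cd3d (-0.18) and Cd3g (-0.14) were not called. Themis was called, but well above background on 1 fld array and 0 control arrays, so no fold is given. Of the 10 dendritic cell markers measured, 2 were called (20%, against 5.26% of all features and 9.68% of those below the median signal). Cd209a was lower and Zbtb46 higher, by 0.52 (SE 0.13, adjusted p = 0.0347), with sums over the markers of 7.12 to 7.75 in fld cells and 7.02 to 7.81 in control cells. Mast cell markers ranged in sum from 47.3 to 158 in fld cells and from 20.8 to 106 in control cells. Erythroid markers ranged from 5.53 to 188 in fld cells and from 1.21 to 133 in control cells, so single arrays within each group differed widely. Of the neutrophil markers 8 of 15 were well above background on all 8 arrays and Elane and Cxcr2 on none, with sums of 10.8 to 15.9 in fld cells and 10.1 to 11.5 in control cells. Of the adipocyte markers 4 of 11 were well above background on all 8 arrays and Adipoq, Lep and Adrb3 on none, with sums of 10.4 to 13.9 in fld cells and 8.25 to 19.5 in control cells.

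The same genotypes were compared after LPS in the same fit, on 8 other arrays, so the contrasts share no array. The LPS library labelled fld replicate 4 also went against its label on the mean of 3 Lpin1 probes. It read -3.03, against -5.93, -6.19 and -5.46 in the other LPS-treated fld arrays and -3.47 to -2.86 in the LPS-treated controls. With LPS, 2982 features were called (17.1%), and 2333 without both arrays labelled fld replicate 4. The values that follow include these arrays. Of the 879 features called higher without LPS, 849 were also higher with it and 746 were called in that direction, and of the 39 called lower, 30 were also lower and 12 were called. Over all features 11608 of 17466 had the same sign in both. The dimmest features were also shifted with LPS: their median level lay between -4.0 and -3.14 on the fld arrays and between -4.90 and -4.40 on the control arrays, and the part of this shift in the shared calls was not tested. The picture differed with signal: above the median signal, the 55 features called higher had a median difference of 0.65 without LPS, with 37 of the same sign and 13 called with LPS, where their median was 0.077. Below the median signal, 812 of 824 were higher and 733 called with LPS, at a median of 1.15. A test of the difference between the genotype differences called 0 of 17466 features by limma, with 1649 (9.44%) at an unadjusted p under 0.05.

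For the clock genes the differences without and with LPS were -2.63 and -2.10 for Nr1d1, -1.10 and -0.60 for Tef, and -0.46 and -0.44 for Per1, all called in both. Dbp differed by -0.85 without LPS and by 0.17 with it, where it was not called, and Per2 by 0.69 and 1.08, called in both. Nr1d1 and Per2 were each read here on 1 probe, and their other probes disagreed without LPS. Gbp2 differed by 1.28 and -0.076, Socs1 by 0.94 and -0.23, Traf1 by 0.82 and 0.11, and Cdkn1a by 0.89 and 0.12, none of them called with LPS. No difference between the 2 conditions passed the adjusted threshold for any of these genes.

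**Figure D5:**
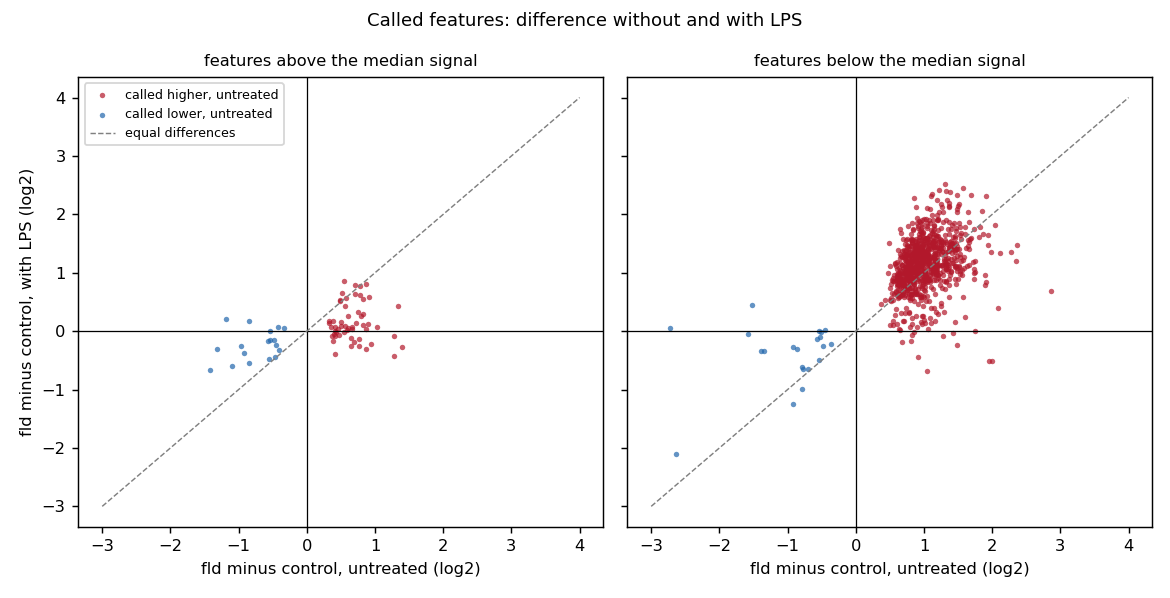
Difference between fld and control cells with LPS (log2, vertical axis) against the difference without LPS (horizontal axis) for the features called without LPS, above (left) and below (right) the median signal. Above it the red points have a median of 0.077 with LPS, and below it most of them lie around the dashed line of equal differences.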

How the data were processed

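Total RNA of the 8 untreated samples (4 fld and 4 control) was amplified, labelled with Cy3 and hybridised to Agilent arrays of design 014868, per the labels and the file headers. The spot intensity values deposited for each array are the processed signal of Agilent Feature Extraction 9.5.1.1, background-subtracted per the file headers. The deposited series value table holds the same signal divided by each array's median, on a linear scale, and served as an alternative. The authors' further steps are not given in the sources used here.

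Each array had 45018 spots, 43379 of them not controls. Outlier-flagged spots (0.208%) were left out and repeats of a probe averaged. The log2 signal minus the array's 75th percentile was used, and each gene was read by its brightest probe (mean over the 16 arrays) among those that cleared background throughout 1 or more of the 4 groups (17466 features, 14072 with a symbol). Names came from RefSeq by accession for 22973 of 41174 probes, by symbol or synonym for 6644 and 3105, and from the files for 8452. limma 3.58.1 in R 4.3.3 fitted all 16 arrays with a mean per group and moderated variances, with p-values adjusted over all features (Benjamini-Hochberg). Tested on simulated data for this comparison (17440 features), it recovered 18%, 65% and 94% of features changed by 0.5, 1 and 2 on the log2 scale, with 3 false calls. The simulated noise was independent between arrays and held no slide effect and no shift with signal. The 3 false calls therefore do not cover calls that such effects could give. The number of arrays limits the precision.

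The genes named are the lipins, the 12 highest and 12 lowest called features with a symbol that were well above background on all 8 arrays without overlap, the 4 largest bounds in each direction, up to 3 called genes of each list in its main direction and 2 in the other, 12 set cytokine and lipid genes, and called genes within 5 Mb of Lpin1. Further list members were named after their values were seen. A bound sets the fld mean against the higher, on each control array, of the lowest signal well above background there and the probe's own signal. The comparison, its members and the gene lists were chosen with earlier results of these data known. Deviations of fld and control arrays with the same replicate number correlated at 0.18, 0.064, -0.0067 and 0.11, so the numbers were not treated as pairs. Alternatives changed the scaling, background correction, filter, probes, fit and arrays used. Single results of a few listed genes are not reported here, though these genes stay in the counts.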

Additional observations from a re-analysis of the deposited data

Results flagged for a closer look

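Of 140 groups of 4 arrays examined for the named genes, 11 held 1 array whose gap to the rest exceeded the 95% limit of Dixon's test. Chance flags about 1 in 20 groups. In the fld groups these were Adh1 in replicate 3 (-4.44, the others -3.60 to -3.43), Socs1 in replicate 2 (3.77, the others 4.50 to 4.61), Bcl2a1b in replicate 1 (6.10, the others 5.90 to 5.91), Zbtb46 in replicate 1 (-1.46, the others -1.68 to -1.65) and Mmp14 in the library labelled fld replicate 4 (5.09, the others 5.66 to 5.70).

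In the control groups they were Axl in replicate 1 (-1.37, the others -2.38 to -2.36), Whrn in replicate 1 (0.14, the others -0.015 to 0.0042), Themis in replicate 2 (-6.38, the others -5.60 to -5.51), Cpt1a in replicate 2 (0.97, the others 1.34 to 1.41), Cd3e in replicate 3 (-1.77, the others -1.52 to -1.48) and Il6 in replicate 3 (-0.60, the others 2.29 to 2.69).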

How the results depend on the processing

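The main counts were 918 called features in all, 598 among those well above background on all 8 arrays, 29 called genes of the pathway lists, each counted once, 2982 with LPS, 0 for the difference between the genotype differences and 1 near Lpin1. In that order of the first 3, fitting only the 8 untreated arrays gave 1704, 1233 and 47, array weights 2308, 1750 and 100, quantile normalization 526, 344 and 11, and normexp with quantile normalization 121, 113 and 4. The 75th percentile over probes well above background on all 16 arrays gave 629, 382 and 18, no filter 898, 398 and 16, and the filter on all 8 untreated arrays 480, 480 and 17. Cyclic loess, added after the data were seen, called 16 list members. Leaving out both arrays labelled fld replicate 4, with and without LPS, gave 1130, 800 and 44.

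With LPS, array medians and the value table gave 8642 calls and normexp 1950. The difference between the genotype differences gave 14 calls with quantile normalization, 14 with normexp, 7 with array medians and the value table, 10 with array weights and 9 with loess. Near Lpin1, normexp and a window of 2 Mb called 0. Leaving out 1 array at a time gave 351 to 987 calls in all, 206 to 670 well above background throughout, 7 to 46 list members, 2844 to 2959 with LPS, 0 to 1 for the difference between differences and 0 to 1 near Lpin1. Of these, the lowest counts of calls in all, among features well above background throughout, in the lists and near Lpin1 came without fld replicate 1. The mean of the probes of a gene turned Grb10 to 0.15, Hspb1 to -0.064 and Per2 to -0.019. The causes were not tested.

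The replicate block, with the numbers 1 to 4 in the fit, gave 1233 calls in all, 838 among features well above background on all 8 arrays and 34 list members. Of 2222 values of single genes under alternatives, 1614 kept their direction and their side of the threshold, 328 lost their call, 8 gained one, 269 values without a test moved and 3 turned. Signal limits the reading: features below the median signal hold 845 of the 918 calls.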
